A study of Mus musculus with 23 samples.

Results

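The bone transcriptome of female mice labelled Sarm1KO was compared between type 1 diabetes (T1D) and nondiabetic Control. The comparison comprised the 12 libraries whose column names begin with KO, 6 KO T1D and 6 KO Control, of 23 in the series. All mice were C57BL6/N females of 11 weeks. T1D mice had been fasted overnight and injected intraperitoneally with streptozotocin, a toxin of insulin-producing beta cells, at 100 mg/kg from 8 weeks of age, and were collected after 3 weeks of diabetes, whereas Control mice received saline. The KO mice carried a global, lifelong deletion of Sarm1, so both KO groups shared it in every tissue. The 11 wild-type (WT) libraries, 5 Control and 6 T1D, were used only for comparison. Each library came from the femur and tibia of a single hind limb after the marrow had been spun out, and each was from a different mouse. Gene expression is given as CPM, the counts scaled to a common library size. A gene was tested when 5 or more libraries held 10 or more of its counts, which left 14364 genes of 18002 with any count.

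SARM1 is an enzyme that consumes the cofactor NAD and drives the self-destruction of injured axons. Insulin deficiency leaves bone short of an anabolic hormone, turns cells toward fatty acids as fuel, and is associated with low bone formation. Marrow-depleted bone contains osteoblasts, which lay down collagen and mineral, osteocytes embedded in it, bone-resorbing osteoclasts, vessels, and blood cells that stay behind after centrifugation. In such bulk RNA, fewer cells of a type and less RNA per cell cannot be told apart.

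Sarm1 itself was counted at very low levels in every group. It had 0.268 CPM in the lowest, 0.739 CPM in the median and 1.57 CPM in the highest mouse of KO Control, and 0.811, 1.24 and 1.45 CPM in those of KO T1D, against 0.845 to 1.76 CPM in WT Control. The KO-labelled libraries therefore overlapped the WT libraries, and since the counts cover the whole gene and reads on single exons were not analysed here, this measurement does not check the genotype labels. KO and WT below are the genotypes as labelled. Library totals ranged from 16938101 to 20135592 counts among the KO mice. Bone identity was clear, with Col1a1, the main bone collagen chain, at a median of 34692 CPM and the osteocyte product Sost at 152 CPM in KO Control. The largest axis of variation among the 12 KO libraries, 30.3% of variance, was led by skeletal muscle genes, whose summed level over 18 genes ran from 307 CPM in KO T1D mouse A3676 to 11699 CPM in KO Control mouse A3679. In WT T1D, mice A3905 and A3906 stood apart, with summed bone matrix RNA of 11466 and 9517 CPM against 79093 to 106490 CPM in the other 4, so WT values below are given with and without these mice.

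Among the KO mice no gene passed the test. At an adjusted p under 0.05 (edgeR quasi-likelihood test, Benjamini-Hochberg over all genes), 0 of 14364 genes differed between KO T1D and KO Control, and the lowest adjusted p was 0.0848. At an unadjusted p under 0.05 there were 606 genes (4.22%), 276 higher (1.92%) and 330 lower (2.3%) in KO T1D. DESeq2 called 4 genes (0.0278%), Slfn5, Cd4, Txnip and Myc, while limma-voom with sample weights and limma on log2 TPM called 0. On the log2(TPM + 1) scale the split of genes at an unadjusted p under 0.05 was 93 higher (0.647%) and 431 lower (3%). The median log2 fold change over all genes on that scale was -0.037. The central 90% of log2 fold changes lay between -0.36 and 0.23, and the median was -0.00. The 95% interval of the change lay within 0.5 log2 units of 0 on both sides for 73.4% of genes and within 1 unit for 89.6%, so for most genes a difference of more than a log2 unit was outside the interval.

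The 2 lowest p-values belonged to immune genes that were lower in KO T1D. Slfn5 (chr11:82951349-82964850 in GRCm38.p6), a Schlafen family gene inducible by type I interferon, had 63.8 CPM in the lowest, 69.4 CPM in the median and 75 CPM in the highest KO Control mouse. In KO T1D it had 46.9, 50.8 and 55.9 CPM in the lowest, median and highest mouse. All 6 T1D mice lay below all 6 Control mice, as did those of 24 genes in all (0.167%), and the log2 fold change was -0.43 (SE 0.07, edgeR adjusted p = 0.0848). Cd4, the co-receptor of helper T cells that is also found on some macrophages and dendritic cells, lay between 39.2 and 55.4 CPM in KO Control, around a median of 48.9. In KO T1D it lay between 31.2 and 36.8 CPM, around a median of 34.7, again without overlap, and the log2 fold change was -0.49 (SE 0.09, edgeR adjusted p = 0.167). DESeq2 gave adjusted p-values of 1.37e-05 for Slfn5 and 0.00148 for Cd4. In WT mice the log2 fold changes were -0.68 for Slfn5 and -0.67 for Cd4, and -0.46 and -0.45 without A3905 and A3906, with no detectable difference from KO in the interaction (unadjusted p = 0.217 and 0.459).

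Other genes with the smallest p-values on the lower side had adjusted p-values of 0.902 or more. Ifi213, an interferon-inducible DNA sensor of the PYHIN family, had a median of 12.6 CPM in KO Control and 9.17 CPM in KO T1D, without overlap between groups (log2 fold change -0.55, SE 0.12). The mitochondrial membrane gene Tmem65 (median 28.6 against 23.4 CPM), Cmtm8 (3.03 against 1.65 CPM) and the protease gene Bace2 (3.19 against 1.99 CPM) also had every T1D mouse below every Control mouse. In these 3 genes the WT log2 fold change was between -0.07 and -0.01, or between -0.13 and 0.10 without A3905 and A3906. Klk1, tissue kallikrein, had medians of 18.7 CPM in KO Control and 10.9 CPM in KO T1D with 5 of 6 T1D mice below all Controls (log2 fold change -0.73, SE 0.17), beside -1.92 in WT mice (-1.45 without these mice). Tek, the angiopoietin receptor of endothelial cells, and Abca1, the cholesterol exporter, had log2 fold changes of -0.47 (SE 0.11) and -0.33 (SE 0.08). Oas1g, an interferon-induced sensor of double-stranded RNA, was at -0.86 (SE 0.23), although its reads may be split with the near-identical Oas1a.

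On the higher side, Myc and Txnip had no overlap between the groups. Myc, a growth-promoting transcription factor, lay between 66.4 and 79.6 CPM in KO Control, around a median of 69.3, and between 82.9 and 98.9 CPM in KO T1D, around a median of 90.5. Its log2 fold change was 0.33 (SE 0.07, edgeR adjusted p = 0.902, DESeq2 adjusted p = 0.0273). Txnip, whose transcription is induced by glucose and whose product restrains glucose uptake, lay between 295 and 327 CPM in KO Control, around a median of 312. In KO T1D it lay between 343 and 416 CPM, around a median of 394, a log2 fold change of 0.30 (SE 0.07, edgeR adjusted p = 0.902, DESeq2 adjusted p = 0.0137) beside 0.57 in WT mice (0.35 without A3905 and A3906). Foxp3, the master regulator of regulatory T cells, had 1.77 CPM in the lowest, 2.26 CPM in the median and 2.98 CPM in the highest mouse of KO Control, and 3.11, 3.78 and 5.81 CPM in those of KO T1D (log2 fold change 0.84, SE 0.20, edgeR adjusted p = 0.902). All 6 T1D mice lay above all Controls for these 3 genes, and for 13 genes in all (0.0905%).

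Smaller differences with tight replicates made up the rest of that side. Cnot3, a subunit of the CCR4-NOT complex that shortens mRNA tails, had a median of 130 CPM in KO Control and 150 CPM in KO T1D, and the zinc finger gene Fiz1 had 49.1 and 56.7 CPM, each without overlap. Champ1, Bcas3 and Rnf126 had log2 fold changes between 0.22 and 0.28 with 5 of 6 T1D mice above all Controls. Stfa2, a stefin A inhibitor of cathepsins found in neutrophils, had the largest fold change among these genes, from a median of 0.984 CPM to 2.36 CPM (log2 fold change 1.46, SE 0.41), beside 3.69 in WT mice (1.55 without A3905 and A3906). The stefin A genes are near-identical copies, so their counts may be divided between them.

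**Figure D1:**
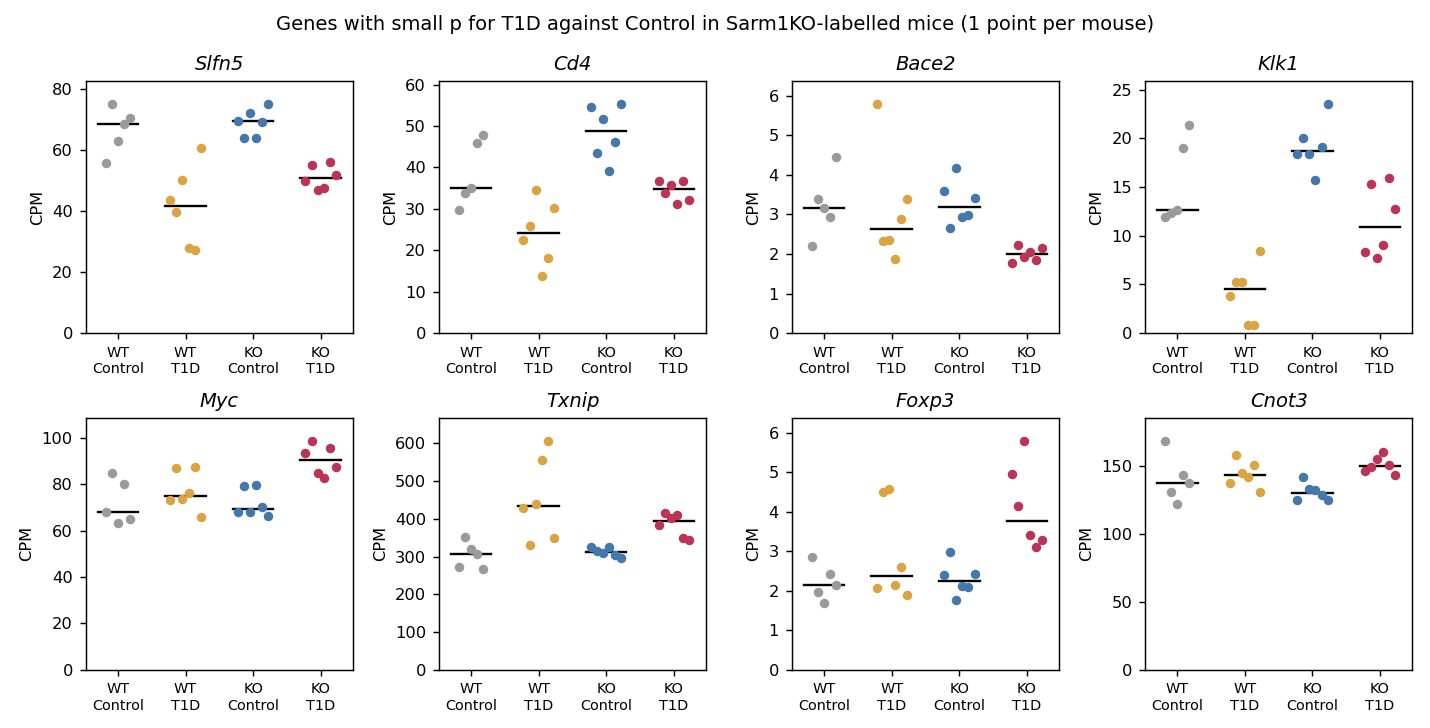
CPM (y axis, from 0) of 8 genes with small p-values in the KO comparison, by group (x axis), with 1 point per mouse and a line at the group median. The KO T1D points lie below all KO Control points for Slfn5, Cd4 and Bace2 and above them for Myc, Txnip, Foxp3 and Cnot3, whereas the WT groups overlap for these 7 genes.

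Genes induced by interferon formed the larger of 2 lists, of 45, whose tested members all had values on the same side of 0. Interferons signal through factors that include STAT2 and IRF9, which bind a promoter element and switch on antiviral genes. Of the 33 genes listed, 31 were tested, Mx1 and Mx2 being too low. All 31 had a log2 fold change below 0 in KO T1D, against 50.9% of all genes, and the median was -0.21. None passed at the adjusted threshold, and 13 of 31 were lower at an unadjusted p under 0.05, against 2.3% of all genes. The list was assembled with earlier results of these data known.

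The promoter element can be read in several of these genes. RefSeq promoter windows (GRCm38.p6) were found for 23 of the 31 tested members, and the letters GAAANNGAA, searched on both strands in the 250 bases before the start, occurred in 14 of them (60.9%), against 7.64% of the 11167 other tested genes with a window. The list was made of genes known to be induced by interferon, so this contrast does not bear on the change with T1D. Of the 13 members lower at an unadjusted p under 0.05, 9 had a window, and 6 held the letters (66.7%). Their stretches around the match nearest the start are shown because they carry these letters, and the genes were chosen after their values were seen. The stretches are Ifit1 at chr19:34640779-34640838 (plus strand), Ifit3 at chr19:34583401-34583460 (plus), Stat2 at chr10:128270251-128270310 (plus), Oas1a at chr5:120907526-120907565 (minus), Ifih1 at chr2:62646334-62646393 (minus) and Irgm1 at chr11:48871421-48871470 (minus). Each is written 5′ to 3′ on the strand of the gene, and capitals mark the letters GAAANNGAA or their reverse complement, including overlapping matches in Ifit1, Oas1a and Irgm1. A match describes the letters and not the binding of a factor.
Ifit1: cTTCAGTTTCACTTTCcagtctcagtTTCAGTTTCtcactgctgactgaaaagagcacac
Ifit3: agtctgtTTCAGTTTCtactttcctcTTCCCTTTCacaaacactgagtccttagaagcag
Stat2: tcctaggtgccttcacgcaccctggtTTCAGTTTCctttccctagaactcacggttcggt
Oas1a: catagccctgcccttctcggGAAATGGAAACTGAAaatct
Ifih1: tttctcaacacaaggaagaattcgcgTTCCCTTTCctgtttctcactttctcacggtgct
Irgm1: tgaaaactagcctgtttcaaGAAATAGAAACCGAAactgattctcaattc

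Oas2, Oas1a and Ifi27l2a had the smallest p-values of the list. Oas2, which senses double-stranded RNA and activates RNA decay, lay between 25.1 and 55.7 CPM in KO Control, around a median of 38.6, and between 21.2 and 32.2 CPM in KO T1D, around a median of 28 (log2 fold change -0.53, SE 0.15, unadjusted p = 0.00389). Oas1a, an enzyme of the same family, had 27.8 CPM in the lowest, 29.9 CPM in the median and 40.4 CPM in the highest mouse of KO Control, and 17.9, 23.9 and 30.3 CPM in those of KO T1D, 5 of 6 T1D mice lying below all Controls (-0.46, SE 0.13). Ifi27l2a had medians of 35.7 and 24.6 CPM (-0.46, SE 0.14). Ifit1, which binds foreign RNA caps, had medians of 26.3 CPM in KO Control and 17.4 CPM in KO T1D, and Ifit3 had 25.7 and 19.8 CPM. Irgm1, a GTPase against intracellular microbes, had 5 of 6 T1D mice below all Controls and the remaining mouse above them, at 56.2 CPM. The signaling genes were less far apart, with Stat2 at -0.18 (SE 0.08) and Irf9 at -0.11 (SE 0.08).

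The mice were not alike in this group of genes. The mean log2 CPM over the 31 genes lay between 5.25 and 5.50 in KO Control (median 5.32) and between 4.80 and 5.38 in KO T1D (median 5.04). KO T1D mice A3682 (5.38) and A3675 (5.27) lay within the Control range, and the other 4 lay below it. Without A3682, 22 of the 31 members were lower at an unadjusted p under 0.05, against 338 of all 14364 genes. A3682 had the highest mean of the KO T1D mice on this list, so this fit was picked by the same values. Over the 12 fits that each left out a KO mouse the count ranged from 10 to 22, against 295 to 397 of all genes. In a model of all 23 libraries it was 1, against 1.58% of all genes, with all 31 members still below 0. Over the fits without single KO mice, 29 to 31 members were below 0. The WT libraries were more spread, with a common biological coefficient of variation of 23.1% against 18.5% among the KO libraries. In WT mice the median of the list was -0.55, or -0.31 without A3905 and A3906. WT Control mice ranged from 4.94 to 5.48 on this mean and overlapped KO Control.

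Some genes of T cells and chemokines were also lower in KO T1D. Besides Cd4, the 2 chains of the CD8 co-receptor of cytotoxic T cells were lower: Cd8a had medians of 4.59 CPM in KO Control and 2.66 CPM in KO T1D (log2 fold change -0.67, SE 0.19, unadjusted p = 0.00257), and Cd8b1 had 5.51 and 3.65 CPM (-0.50, SE 0.23, unadjusted p = 0.0453). The 15 genes of T and NK cells had a median of 0.02, and their summed level overlapped, at 187 to 231 CPM in KO Control and 167 to 233 CPM in KO T1D. Ccl2, the attractant of monocytes, lay between 1.31 and 2.71 CPM in KO Control, around a median of 1.83, and between 0.324 and 1.69 CPM in KO T1D, around a median of 0.488. Its log2 fold change was -1.40 (SE 0.38, unadjusted p = 0.0018), beside -1.55 in WT mice (-1.31 without A3905 and A3906). Cxcl16 was at -0.40 (SE 0.16). Of 26 chemokine and receptor genes tested, 3 were lower and 0 higher at an unadjusted p under 0.05, against 2.3% and 1.92% of all genes, and the median was -0.01. Of 13 endothelial genes, 12 were below 0, against 50.9% of all genes, with a median of -0.14. Of these, 2 were lower at an unadjusted p under 0.05, Tek and the VEGF receptor Kdr (-0.31, SE 0.14), against 2.3% of all genes. All 15 genes of resident macrophages had values below 0, against the same 50.9%, with a median of -0.06 and 1 at an unadjusted p under 0.05.

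Bone-forming genes were at similar levels in diabetic and nondiabetic KO mice. Of 23 tested transcription factors and receptors of osteoblasts, 19 were above 0 and 4 below 0 in KO T1D, whereas 50.9% of all genes were below 0. Their median log2 fold change was 0.06, and 1 was higher at an unadjusted p under 0.05, against 1.92% of all genes. This was Bmp2, a bone morphogenetic ligand, with medians of 16.3 CPM in KO Control and 23.9 CPM in KO T1D and 4 of 6 T1D mice above all Controls and 1 below them (0.38, SE 0.14, unadjusted p = 0.0141). Runx2, the transcription factor that commits cells to the osteoblast lineage, had 70.4 CPM in the lowest, 78.1 CPM in the median and 92.3 CPM in the highest mouse of KO Control, and 73, 88.4 and 97.2 CPM in those of KO T1D (0.10, 95% interval -0.10 to 0.29). Fgfr2, a fibroblast growth factor receptor, had medians of 69.4 and 68.5 CPM (0.05, interval -0.15 to 0.25). Pth1r, the parathyroid hormone receptor, had medians of 123 and 111 CPM (-0.00, interval -0.23 to 0.23). The groups overlapped for these 3 genes.

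The 27 genes of bone matrix and mineralization had a median of 0.06, and 0 of them had an unadjusted p under 0.05. Col1a1 ranged from 27351 to 54596 CPM in KO Control and from 38820 to 58285 CPM in KO T1D (0.24, interval -0.12 to 0.60). Ibsp, bone sialoprotein, had medians of 1027 and 995 CPM (-0.01, interval -0.20 to 0.18). The 14 osteocyte genes had a median of 0.03, with Sost, the Wnt inhibitor sclerostin, at 0.12 (interval -0.14 to 0.38), and the 18 osteoclast genes had a median of -0.04, with the matrix-digesting protease Ctsk at -0.23 (interval -0.52 to 0.06).

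Osteoblast genes were farther from 0 in WT mice. In WT T1D the osteoblast list had a median of -0.57 and the bone matrix list of -0.72, or -0.29 and -0.27 without A3905 and A3906. In the interaction test no gene passed at the adjusted threshold (edgeR, lowest adjusted p 0.489, 1433 genes or 9.98% at an unadjusted p under 0.05, 0 genes by DESeq2 and limma-voom, and 1 by limma on log2(TPM + 1)). Of the 23 osteoblast genes, 11 had a more positive change in KO than in WT at an unadjusted p under 0.05, against 4.64% of all genes, and 0 a more negative one. Without A3905 and A3906 these were 6 of 23, against 2.44% of all genes. The bone matrix list had 3 of 27 with a more positive change in KO (5 without the 2 mice). The osteocyte list had 3 of 14 with a more positive and 1 with a more negative change (3 and 0 without the 2 mice). The osteoclast list had 1 of 18 and 2 of 18 (3 and 0 without the 2 mice). A more negative change was found in 5.34% of all genes, or 2.17% without the 2 mice. The WT median of the osteoclast list was 0.03, or -0.39 without the 2 mice. For the osteoblast list, the count of 11 ranged from 5 to 14 over the fits that each left out a mouse. It was 5 without A3905, 6 without A3906, 6 without WT Control mice A3767 or A3907, and 5 without KO T1D mouse A3674. With the erythroid score as a covariate the osteoblast count was 2, against 268 of all 14364 genes. For Fgfr2 the change in KO exceeded that in WT by 0.62 (SE 0.13, unadjusted p = 9.56e-05), and by 0.57 (SE 0.14, unadjusted p = 0.000346) without the 2 mice. For Runx2 the excess was 0.76 (SE 0.22, unadjusted p = 0.00266), and 0.52 (SE 0.15, unadjusted p = 0.00245) without them. For Col1a1 it was 1.14 (SE 0.72, unadjusted p = 0.129), and 0.61 (SE 0.26, unadjusted p = 0.027) without them. The study had named Fgfr2, Runx2 and Col1a1 among genes lowered by T1D in WT but not in KO mice, from these same libraries. Their interaction p-values are therefore not independent of that choice.

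**Figure D2:**
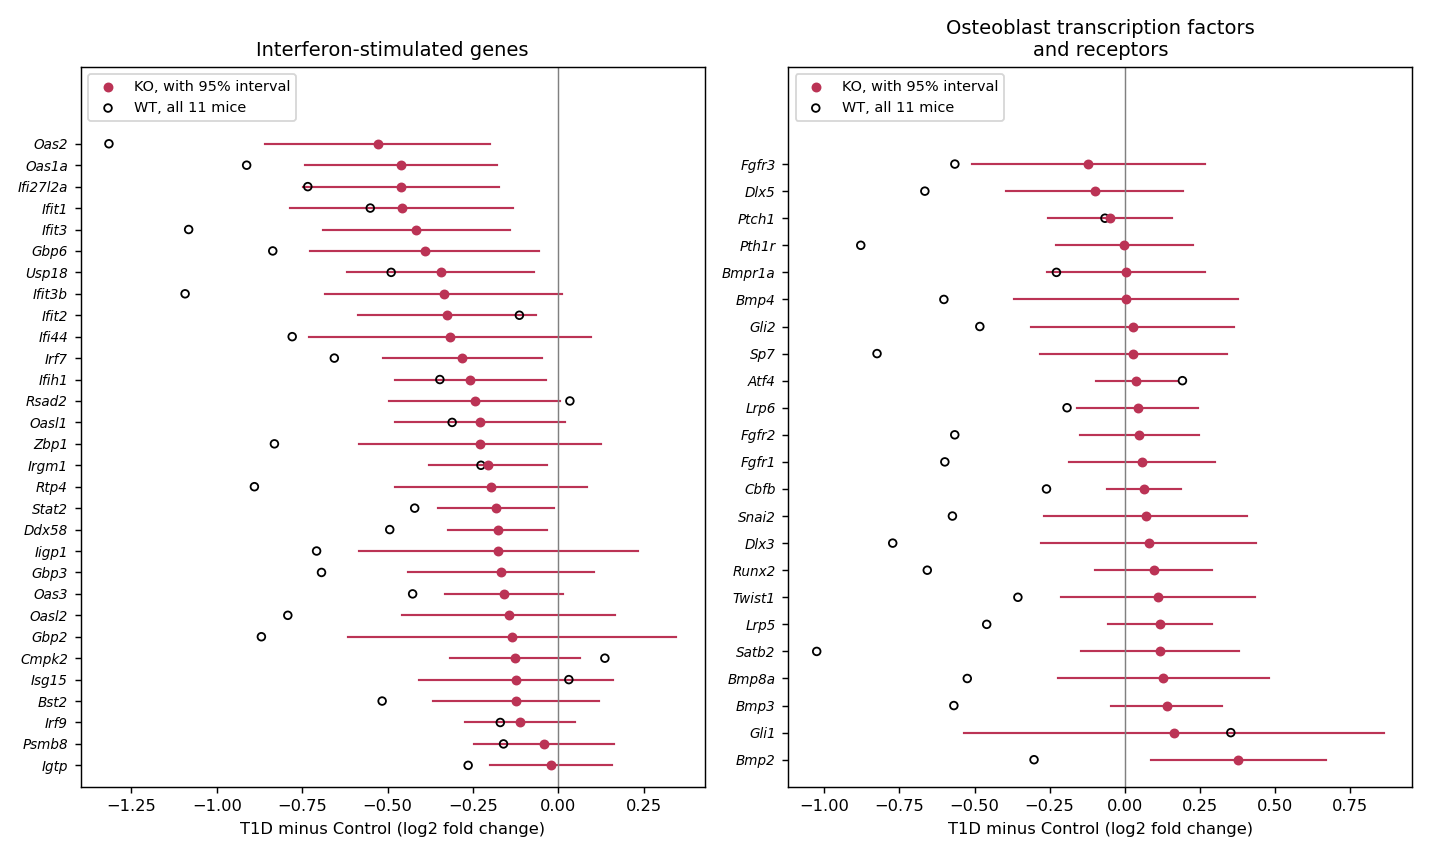
Log2 fold change of T1D against Control (x axis) for 30 of the 31 tested interferon-stimulated genes (left) and the 23 tested osteoblast transcription factors and receptors (right), with filled points and 95% intervals for KO mice and open circles for all 11 WT mice. All plotted interferon points of the KO mice lie below 0, from -0.53 to -0.02, while the osteoblast points of the KO mice lie between -0.12 and 0.38 and most WT circles lie to their left. The circles include mice A3905 and A3906. Without them the WT list median is -0.31 in place of -0.55 for interferon and -0.29 in place of -0.57 for osteoblast genes.

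**Figure D3:**
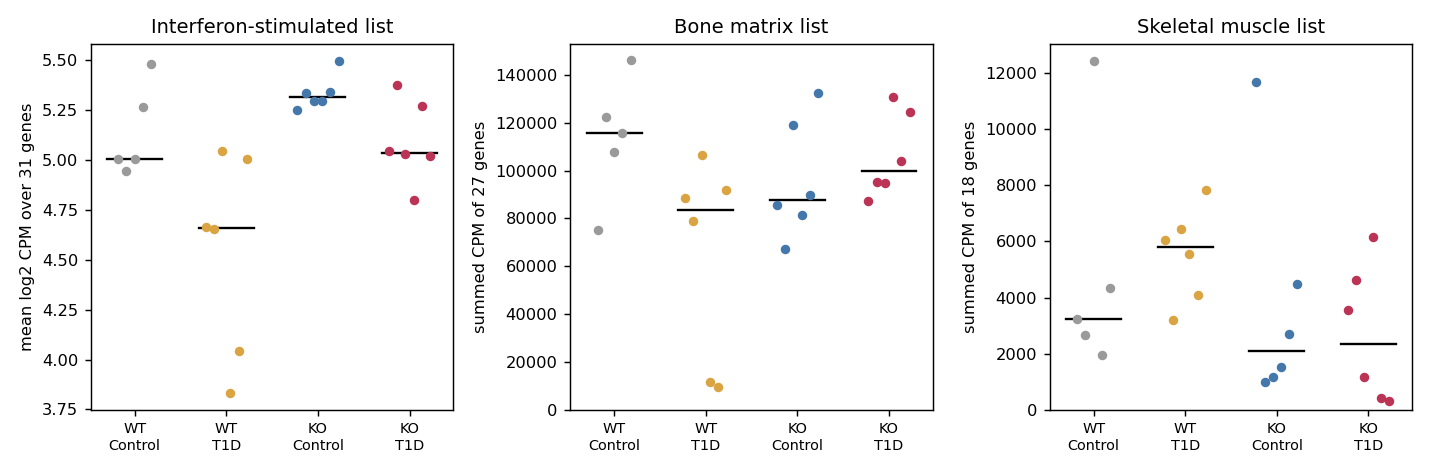
Mean log2 CPM of the interferon-stimulated list (left), summed CPM of the bone matrix list (centre) and summed CPM of the skeletal muscle list (right), by group with 1 point per mouse and a line at the median. In KO T1D, 4 of 6 mice lie below the KO Control mice on the interferon list, the KO groups overlap on both other lists, and WT T1D mice A3905 and A3906 lie far below all other mice on bone matrix RNA.

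Fuel genes showed single members but no common direction. In insulin deficiency, fatty acids from fat stores activate PPAR nuclear receptors, which induce enzymes of fatty acid oxidation. Of 20 such genes tested, 4 were higher and 1 lower at an unadjusted p under 0.05 in KO T1D, against 1.92% and 2.3% of all genes, with a list median of -0.05, beside 0.61 in WT mice and 0.43 without A3905 and A3906. Cpt1a, the gatekeeper of fatty acid entry into mitochondria, had medians of 80.3 CPM in KO Control and 107 CPM in KO T1D (log2 fold change 0.32, SE 0.12, unadjusted p = 0.0153), and the thioesterase Acot2 had 5.77 and 6.85 CPM (0.36, SE 0.13). Angptl4, a PPAR target that inhibits lipoprotein lipase, lay between 15.6 and 39.4 CPM in KO Control, around a median of 24.8, and between 23.4 and 50.4 CPM in KO T1D, around a median of 43.8 (0.62, SE 0.27, unadjusted p = 0.0453), beside 1.31 in WT mice (1.17 without the 2 mice). Ppara was at -1.38 (SE 0.59), with the single highest value, 5.83 CPM, in Control mouse A3679, the library richest in muscle RNA, and at -0.45 without it. A3679 was also the highest of the KO mice for the fatty acid oxidation genes Cpt1b (31.6 CPM) and Hadhb (89.9 CPM). Hk1, which traps glucose in the cell, had medians of 241 and 275 CPM (0.21, SE 0.08), and Pfkl, the liver-type phosphofructokinase, had 39.9 and 45 CPM (0.16, SE 0.07). Scd2, a fatty acid desaturase, was lower at 85.9 against 59.7 CPM (-0.36, SE 0.14). Cfd, the adipocyte product adipsin, had 8.7 CPM in the lowest, 14 CPM in the median and 36.7 CPM in the highest mouse of KO Control, and 15.2, 35.1 and 50.5 CPM in those of KO T1D (1.04, SE 0.43, unadjusted p = 0.0349). The summed level of adipocyte genes overlapped between groups, from 991 to 1756 CPM in KO Control and 1116 to 1890 CPM in KO T1D.

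Red cell genes were at similar levels in the KO groups. The 15 erythroid genes had a median log2 fold change of 0.06 with 0 at an unadjusted p under 0.05, and hemoglobin took 8.01% to 15.8% of counts in KO Control and 10.5% to 14.1% in KO T1D. In WT mice the erythroid median was 0.60, or 0.41 without A3905 and A3906, and 10 of 15 genes had a less positive change in KO than in WT at an unadjusted p under 0.05, against 5.34% of all genes (5 of 15 against 2.17% without the 2 mice). Slc4a1, the anion exchanger of the red cell membrane, had medians of 3260 and 3382 CPM in the KO groups (0.13, SE 0.12), and Gata1, the erythroid master regulator, was at 0.20 (SE 0.12). Car1, an erythroid carbonic anhydrase, stood higher, from a range of 155 to 319 CPM and a median of 262 in KO Control to 314 to 415 CPM and a median of 338 in KO T1D. For Car1, 5 of 6 T1D mice lay above all Controls (0.46, SE 0.14, unadjusted p = 0.00468), and the WT value was 1.77, or 0.90 without the 2 mice. The lists of mitosis and DNA replication had medians of 0.02 and 0.06 in KO mice, beside 0.35 and 0.31 in WT mice (0.22 and 0.21 without the 2 mice).

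The following lists of other blood lineages had most members above 0, with overlapping groups, whereas 50.9% of all genes were below 0. Of 10 megakaryocyte genes, 9 were above 0, with a median of 0.14. Of these, 2 were higher at an unadjusted p under 0.05, against 1.92% of all genes, including the platelet glycoprotein Gp5 (0.23, SE 0.10, unadjusted p = 0.028). Mpo, myeloperoxidase of early granulocytes, was at 0.33 (SE 0.15), in a list of 16 neutrophil granule genes, 10 above 0, with a median of 0.06. It lay between 3990.6 and 4612.5 CPM in KO T1D mice A3681, A3682 and A3683. In A3674, A3675 and A3676 it lay between 2541.2 and 2822.9 CPM, within the KO Control range of 2295.3 to 3325.5 CPM. Of 12 stefin A and acute-phase genes, 11 were above 0 and 4 were higher at an unadjusted p under 0.05, against 1.92% of all genes, with a median of 0.39 beside 1.15 in WT mice (0.42 without the 2 mice). They included Stfa1 (0.71, SE 0.31) and the acute-phase protein Orm1 (0.46, SE 0.18). Dntt, which diversifies immunoglobulin genes in B-cell precursors, had medians of 31.8 and 50.9 CPM (0.64, SE 0.29, unadjusted p = 0.0517), in a list of 17 B-cell development genes, 14 above 0, with a median of 0.12.

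Genes of oxidative stress and energy production were near 0 as groups. The 18 antioxidant enzymes had a median of 0.02, with Sod2, the mitochondrial superoxide dismutase, lower at medians of 41.6 CPM in KO Control and 37.9 CPM in KO T1D (-0.24, SE 0.10, unadjusted p = 0.0352). The 19 NRF2 targets had a median of 0.04, with the heme-degrading enzyme Hmox1 at -0.30 (SE 0.16), and the 7 NADPH oxidase genes had a median of 0.01. Of 20 oxidative phosphorylation genes, 16 were below 0, against 50.9% of all genes, with a median of -0.04. Control mouse A3679, the library richest in muscle RNA, had the highest value of the KO mice for Cox6c (101 CPM) and Atp5g1 (131 CPM). The part of this library in the list was not tested. At an unadjusted p under 0.05, 2 were lower, against 2.3% of all genes. These were Cox6c of cytochrome c oxidase (-0.34, SE 0.10, unadjusted p = 0.00429) and Ndufb8 of complex I (-0.24, SE 0.09, unadjusted p = 0.0132). Ddit3, a stress transcription factor, was at -0.28 (SE 0.12) in KO and 0.43 in WT mice, a difference of -0.72 (SE 0.23, unadjusted p = 0.00475), or -0.41 (SE 0.18, unadjusted p = 0.0335) without A3905 and A3906. Cd38, another NAD-consuming enzyme, was at -0.24 (SE 0.11), in a list of 16 Sarm1 and NAD metabolism genes with a median of -0.11.

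Several of the largest fold changes belonged to genes with wide spread. Among genes with a mean of at least 10 CPM, the 5 with the lowest log2 fold changes were Ckmt2 (-1.57), Myh2 (-1.47), Myl3 (-1.32), Mb (-1.25) and Myh7 (-1.23), all of slow or oxidative muscle fibres, with SEs between 0.80 and 1.23. Control mouse A3679 had the highest values of all but Myh7, which was highest in Control mouse A3766, such as 353 CPM of Myh2 against a KO Control median of 41.4. Without A3679 the log2 fold changes were -0.78 for Ckmt2, -0.56 for Myh2, -0.71 for Myl3 and -0.54 for Mb, and Myh7 was at -0.44 without A3766 and -2.12 without KO T1D mouse A3682. Of 18 muscle genes 0 had an unadjusted p under 0.05. The part of muscle RNA in the other results was not tested beyond a fit with the muscle score as a covariate, in which 0 genes passed. In that fit 15 interferon genes were lower at an unadjusted p under 0.05, against 387 of all 14364 genes. Besides Cfd and Angptl4, the highest were Cyr61, a matricellular gene that responds to mechanical load (0.74, SE 0.37, or 0.47 without KO T1D mouse A3682), the clock gene Per1 (0.67, SE 0.36) and Dntt. The circadian clock list had a median of -0.04, with Npas2 at 0.40 (SE 0.19), and the glucocorticoid-responsive list of 0.07. Sox9, the cartilage transcription factor, was at -0.72 (SE 0.28) in a growth plate list of 15 genes with a median of -0.28 and a median SE of 0.55. Axin2, a Wnt target, was at -0.39 (SE 0.16), and Mmp11, a matrix protease, at 0.36 (SE 0.13). Tac2, which encodes the neuropeptide neurokinin B, lay between 3.58 and 8.3 CPM in KO Control, around a median of 6.06, and between 6.49 and 11.2 CPM in KO T1D, around a median of 9.12 (0.57, SE 0.20, unadjusted p = 0.012), beside 0.72 in WT mice (0.78 without A3905 and A3906).

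**Figure D4:**
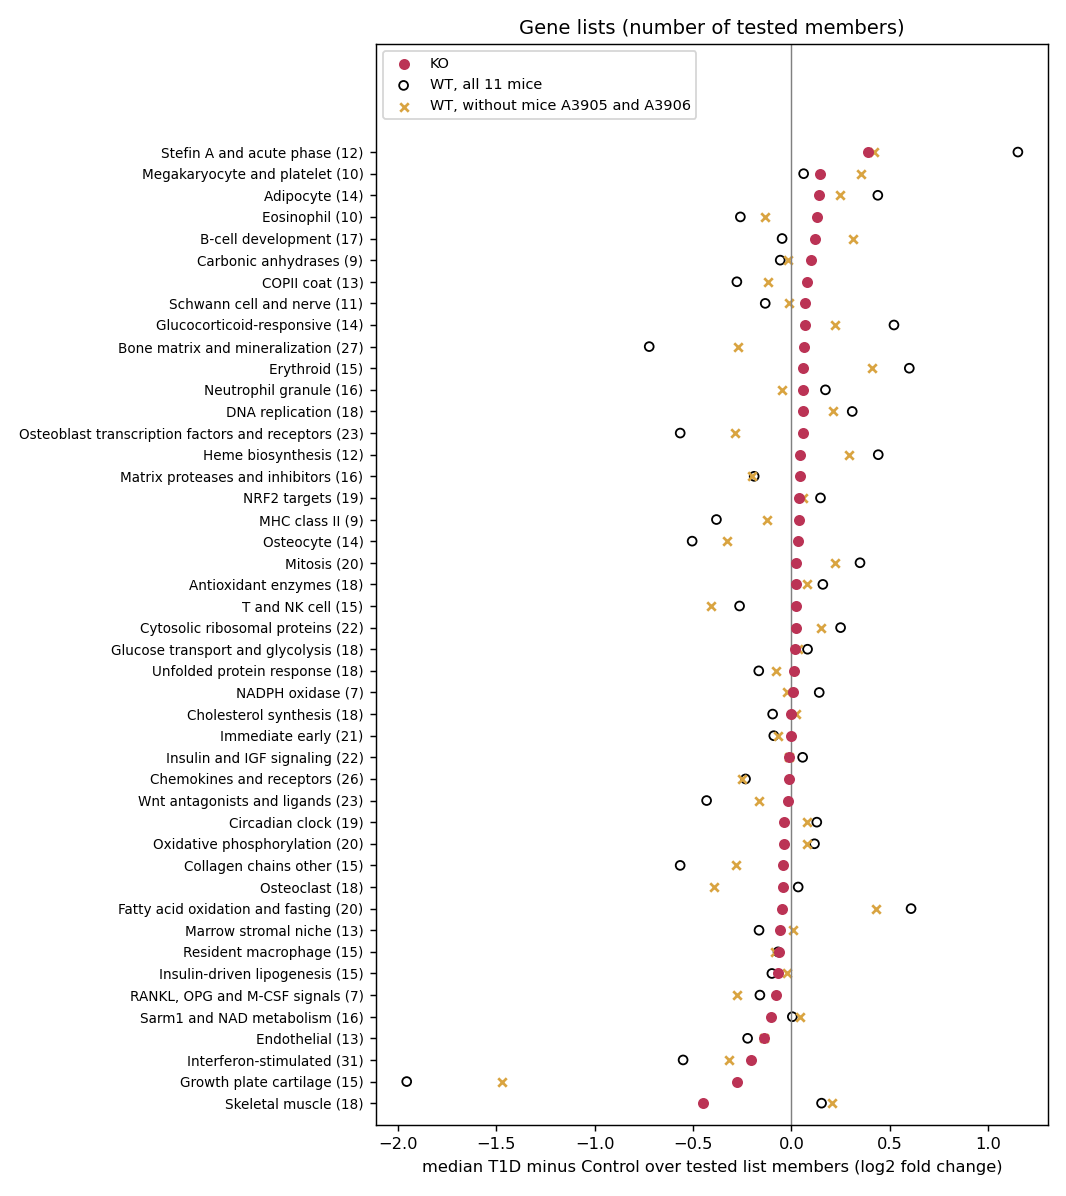
Median log2 fold change of T1D against Control (x axis) over the tested members of 45 gene lists (y axis, number of members in parentheses), for KO mice (filled points), all WT mice (open circles) and WT mice without A3905 and A3906 (crosses). The KO medians run from -0.45 for skeletal muscle to 0.39 for stefin A and acute phase, with most within 0.15 of 0, whereas the WT medians run from -1.96 for growth plate cartilage to 1.15.

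Fewer genes passed in KO mice than in WT mice, and the number in WT mice depended on A3905 and A3906. In WT mice 373 genes (2.6%) passed at an adjusted p under 0.05 in the model of all libraries. Without A3905 and A3906, with 4 WT T1D mice left, 0 passed in a model of both genotypes. There 1549 genes (10.8%) still had an unadjusted p under 0.05 in WT mice. In KO mice this share was 4.22% in the fit of the KO libraries alone, and the count was 436 genes in the model of all libraries. Of the 373 genes, 297 (79.6%) had the same direction in KO mice, against 55.5% of all genes, with a median change in the WT direction of 0.06 in KO beside a median size of 0.51 in WT. The 373 genes were chosen by their p in WT mice, with A3905 and A3906 included. Their WT size is therefore not independent of that choice. At an unadjusted p under 0.05, 35 had the same direction in KO and 0 the opposite one. Across the 14364 genes, Pearson's r of the KO and WT log2 fold changes was 0.13, or 0.076 without A3905 and A3906. This is a description over genes that are not independent.

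The genes that led the WT comparison had values near 0 in KO mice. Tep1, a telomerase-associated protein gene, Lifr, the receptor of leukemia inhibitory factor, Traip, a ubiquitin ligase of DNA repair, Fgfr2 and Cat, the peroxide-degrading catalase, had the smallest WT p-values, with WT log2 fold changes of -0.55, -0.67, 0.73, -0.57 and 0.44 (-0.50, -0.53, 0.52, -0.52 and 0.43 without A3905 and A3906). In KO mice they were at -0.13, -0.06, 0.06, 0.05 and 0.09, each with an interval that included 0. Besides Fgfr2, the smallest interaction p-values belonged to Rnf139, Slit2, Creg1 and Stom. All genes of this paragraph were chosen by such p-values from these same libraries. Their WT values and differences between genotypes are therefore not independent of that choice. Slit2, a secreted axon guidance protein, was at 0.03 (SE 0.10) in KO and -0.73 in WT mice, a difference of 0.76 (SE 0.18, unadjusted p = 0.000302), or 0.64 (SE 0.18) without the 2 mice. Stom, stomatin of the red cell membrane, was at -0.07 in KO and 0.55 in WT mice, and Creg1 at -0.02 and 0.52, where without the 2 mice the WT values were 0.41 and 0.42. Rnf139, a ubiquitin ligase of the endoplasmic reticulum, was at -0.15 in KO and 0.36 in WT mice, a difference of -0.52 (SE 0.12), or -0.44 (SE 0.12) without the 2 mice.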

How the data were processed

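RNA was sequenced at a commercial provider (paired-end DNBSEQ, oligo dT selection, strand marked by dUTP). Per the study's methods, the authors filtered reads with SOAPnuke and aligned them with HISAT and Bowtie2 to GRCm38.p6. The deposited counts are RSEM estimates per gene, rounded to whole numbers by the authors and not normalized. The deposited TPM values are scaled by length and depth by the provider, and their symbols named the gene IDs. Genes with a count of at least 10 in at least 5 of the 23 libraries were kept. Counts were normalized by TMM and fitted with edgeR 4.0.16 in R 4.3.3. The KO comparison used the 12 KO libraries, and the interaction used all 23. P-values are two-sided, and adjusted over 14364 genes. SEs were derived from the F statistics. Alternatives were DESeq2 1.42.0, limma 3.58.1 (voom, and log2 TPM with 1 or 0.1 added), other scaling, filters and covariates, and each mouse left out. The fits were tested on simulated data.

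The members and the 45 gene lists (718 genes tested) were chosen with earlier results of these data known. Genes named in the text were the 10 higher and 10 lower with the smallest p at 1 CPM or more, the 5 with the largest fold change in each direction at 10 CPM or more, the 3 with the smallest p in each list, those named in the study's RNA-Seq text, and the 5 leading the WT and interaction tests. Ifit1, Ifit3, Irgm1, Stat2, Irf9 and Ifih1 and the marker Sost were added outside this rule, and a few genes that it covers are not reported here. Positions are from RefSeq. Each mouse gave 1 library, and replicate pairs within KO groups differed beyond counting noise. Mouse numbers fall into runs, whose meaning was not given in the sources used here. No paired analysis was possible because no mouse number was shared between groups.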

Additional observations from a re-analysis of the deposited data

Results flagged for a closer look

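In 12 of 158 combinations of 79 named genes with a KO group, the highest or lowest mouse stood apart from the other 5 by a larger share of the group's log2 range than Dixon's 95% critical value for 6 mice. Chance flags about 1 in 20 groups, and no cause was tested. In KO Control, mouse A3766 was highest for Ifi213 (19.06 CPM, next 13.84) and lowest for Pfkl (34.37) and Stom (201.7). Mouse A3679, the library with the most muscle RNA, was highest for Tmem65 (36.19, next 29.99) and Ppara (5.832, next 1.212) and lowest for Stfa2 (0.2859, next 0.7694). Mouse A3670 was highest for Lrp5 (147.6), a Wnt co-receptor, and lowest for Npas2 (4.346). Mouse A3672 was highest for Cfd (36.69, next 14.88), and mouse A3673 for Per1 (86.95, next 41.5). In KO T1D, mouse A3681 was lowest for Champ1 (26.34) and mouse A3682 for Mmp11 (5.62).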

How the results depend on the processing

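In KO mice 0 genes passed in every alternative except DESeq2 (4 genes), and 0 to 0 without single mice. Genes higher at an unadjusted p under 0.05 numbered 276, but 93 and 92 on log2 TPM with 1 and 0.1 added, where the medians over all genes were -0.037 and -0.044. For the interaction, 0 genes passed except on log2(TPM + 1) (1 gene, H2-Q1), where the median over all genes was 0.20, and the 3106 genes higher and 68 lower at an unadjusted p under 0.05 compare with 666 and 767 on counts. The count at that threshold, 1433 in the model of all libraries, was 3163 with mouse numbers A36 to A39 only (lowest adjusted p 0.0555), 500 with the erythroid score, 662 without both WT T1D mice low in bone matrix RNA, and from 916 (without A3906) to 1918 (without A3909) without single mice. The interferon count of 13 was 1 in the model of all 23 libraries and 10 to 22 without single mice. Over all genes, those lower numbered 330 in the main fit, 227 in that model and 295 to 397 without single mice. The osteoblast interaction count of 11 was 2 with the erythroid score, 6 without both WT T1D mice low in bone matrix RNA, and 5 to 14 without single mice. Over all genes, more positive changes numbered 666 in the main fit and 268 with the erythroid score. They numbered 350 without both WT T1D mice and 362 to 958 without single mice. The causes were not tested.

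Values near 0 changed sign. With mouse number runs, the erythroid score and the muscle score as covariates Pth1r was at 0.046, 0.0048 and 0.0054. Ibsp was at 0.050 and 0.010 under the first 2 of these. Slit2 was at -0.018 and -0.021 on the TPM scales and -0.0091 with the muscle score, Traip at -0.0056 and -0.0065 on the TPM scales, and Myh7 at 0.092 with the muscle score. Without single mice the ranges were -0.095 to 0.042 for Pth1r, -0.070 to 0.032 for Ibsp, -0.013 to 0.097 for Fgfr2, -0.042 to 0.10 for Slit2 and -0.087 to 0.042 for Creg1. Myh7 ranged from -2.12 to -0.44. Leaving out a single mouse also moved the values of Col1a1 to 0.15 (without A3680), Ctsk to -0.15 (A3682) and -0.37 (A3683), Gata1 to 0.11 (A3766) and Npas2 to 0.26 (A3670). With 6 mice a group the median SE of a log2 fold change was 0.109.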
